A study of Mus musculus with 28 samples.

Results

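In MC38 mouse colon adenocarcinoma cells, 680 windows of 5 kb carried the repressive mark H3K9me3 in all 3 control libraries and in none of the 3 Setdb1 knockout libraries. They were chosen by a rule on these same 6 libraries: at least 500 bp under called islands in every control library and 0 bp in every knockout library, over windows starting at multiples of 5000 on chromosomes 1 to 19 and X. They made up 0.129% of the 526333 windows and 1.11% of the 61312 windows that met the control side of the rule, which are called control-covered here. The loss itself is therefore a selection and not a finding, and it is described without a test.

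H3K9me3, trimethylation of lysine 9 of histone H3, marks silenced chromatin, and SETDB1 is one of the methyltransferases that place it, often at retroviral elements to which zinc finger proteins recruit it through TRIM28. H3K9Ac, acetylation of the same residue, marks active promoters and enhancers, and 1 histone tail cannot carry both marks on that residue. The series was designed to look at both marks where exons are spliced to transposable elements.

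The cells were the melanoma line B16OVA (B16 here) and MC38. CTRL cells of either line had received the pCRISPR-v2-puro vector without a guide, and SETDB1 cells the same vector with a guide against Setdb1, so all groups were transduced and grown in puromycin. Chromatin was digested with micrococcal nuclease and immunoprecipitated, with 3 numbered libraries per line, genotype and mark, 24 in all. The labels do not say whether the numbers are separate cultures or whether knockout cells were a clone or a pool, so p-values measure the spread between these libraries.

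Each library is a list of SICER islands, stretches of 200 bp bins enriched for reads, with the reads in each. A window without an island has a value of 0 that means "no island called" and not "no reads", so no fold change is given against a group at 0. The MC38 H3K9me3 libraries held 16919723 to 45414798 island reads on these chromosomes. Islands covered 380 ± 62.0 Mb in MC38 CTRL and 407 ± 177 Mb in MC38 SETDB1 libraries (SD, n = 3 each). SETDB1 replicate 3 stood apart with 41010 islands over 215 Mb, against 563 Mb in SETDB1 replicate 1 and 442 Mb in SETDB1 replicate 2. Of 8 melanocyte genes, all had H3K9Ac islands within 2 kb in all 6 B16 libraries and 3 of 8 in all 6 MC38 libraries, where Tyrp1, Tyr and Dct had none. Of 10 genes of gut and simple epithelium, 7 had them in all 6 MC38 libraries and 7 in all 6 B16 libraries, with Krt18 among the MC38 genes only and Cldn7 among the B16 genes only. Of 8 mesenchymal genes 7 had them in all 6 MC38 libraries and 7 in all 6 B16 libraries, and of 8 leukocyte genes 6 and 4 did.

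The rule's requirement of a gap in every knockout library was met by few of the control-covered windows. Of these windows 36281 had an island in all 3 SETDB1 libraries, 18466 in 2, 5885 in 1 and 680 in 0. Just inside the length threshold, 78 members had 600 bp in their least covered control library and 69 had 800 bp. Just outside it, 84 windows bare in all SETDB1 libraries had 400 bp there and 97 had 200 bp. The median density of control islands was 50.0, 49.3 and 55.4 reads per kb in the 147 windows just inside and 47.7, 50.4 and 55.0 in the 181 just outside, for CTRL replicates 1, 2 and 3. On the knockout side, 50 control-covered windows missed the rule by at most 200 bp in 1 SETDB1 library.

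The same rule was applied to every other choice of 3 covered and 3 bare libraries among the 6, as plain counts. Islands in all SETDB1 and no CTRL libraries were found in 353 windows. The 18 choices that mixed the genotypes gave between 92 and 9077 windows, with a median of 795, and 9 of the 18 exceeded 680. The highest count, 9077, came from CTRL replicates 1 and 3 with SETDB1 replicate 1, and the lowest, 92, from CTRL replicate 2 with SETDB1 replicates 1 and 3. The number of members was thus within the range of the choices that mixed the genotypes. That range depended on SETDB1 replicate 3, which the member rule leaves bare. Mixed choices that also left it bare gave 522 to 9077 windows, and only the lowest of these was under 680. Mixed choices that covered it gave 92 to 1975, and only the highest of these was over 680. The reverse rule, with 353 windows, covers it too. The part of this library in these counts was not tested. Single libraries differed in the same way: a window covered in 1 CTRL and bare in 1 SETDB1 library was found 18904 to 78577 times over the 9 pairs (median 37414). Covered in 1 CTRL and bare in another CTRL library were 24491 to 52243 windows over 6 ordered pairs (median 41382), and the corresponding SETDB1 pairs gave 11109 to 102761 (median 47977.5).

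**Figure D1:**
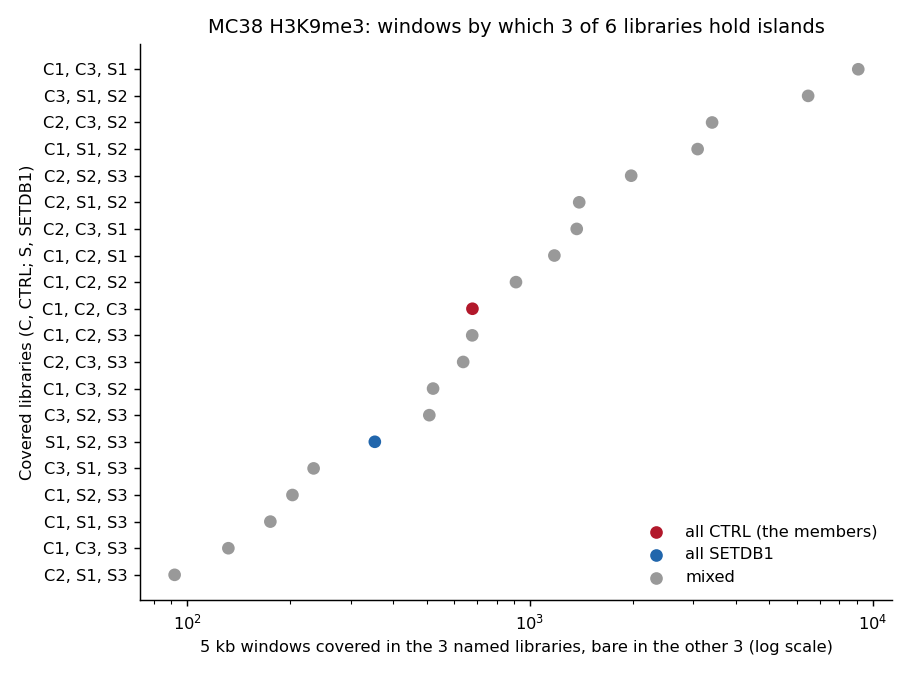
Number of 5 kb windows (log scale) with at least 500 bp under H3K9me3 islands in the 3 MC38 libraries named on the left (C, CTRL; S, SETDB1; with replicate number) and 0 bp in the other 3. The 680 members (red) lie within the range of the mixed choices (grey, 92 to 9077), and the 353 windows of the reverse rule (blue) lie lower. Mixed choices that leave SETDB1 replicate 3 bare, as the member rule does, gave 522 to 9077. Those that cover it, as the reverse rule does, gave 92 to 1975.

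The control islands over the members were of ordinary height and covered less of the window. Their median density was 47.3, 49.5 and 54.6 reads per kb in CTRL replicates 1, 2 and 3. In all control-covered windows it was 49.5, 49.4 and 58.6, and in the 34857 of these with at least 500 bp in all 3 SETDB1 libraries 51.6, 51.2 and 61.3. The members held a median of 2.2, 2.6 and 2.4 kb under islands, against 3.8, 3.8 and 4.2 kb in all control-covered windows. In the least covered control library the median was 1.6 kb in members and 2.6 kb in control-covered windows. Whole islands differed less in length. Those touching members had a median of 2.8, 3.6 and 3.6 kb in CTRL replicates 1, 2 and 3. All islands of these libraries had 3.4, 3.8 and 4.4 kb. These values belong to the selecting contrast and are a description.

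Density also bears on which islands a library can list. The lowest 5% of islands lay under 37.8, 38.7 and 44.1 reads per kb in CTRL replicates 1, 2 and 3, and under 64.1, 48.9 and 71.6 in SETDB1 replicates 1, 2 and 3. Per 1000000 island reads of each library, that limit was 1.41 and 1.78 reads per kb in SETDB1 replicates 1 and 2 and 3.77 in SETDB1 replicate 3. The members had a median control density of 2.62 on this scale and all control-covered windows 2.69. Of the 680 members, 657 (96.6%) lay under the limit of SETDB1 replicate 3 and 0 under those of the other SETDB1 libraries. The same held for 97.6% of all control-covered windows, so this measure did not set the members apart. Without SETDB1 replicate 3 the rule found 1344 windows. How much of the loss in that library reflects its own limit was not tested.

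**Figure D2:**
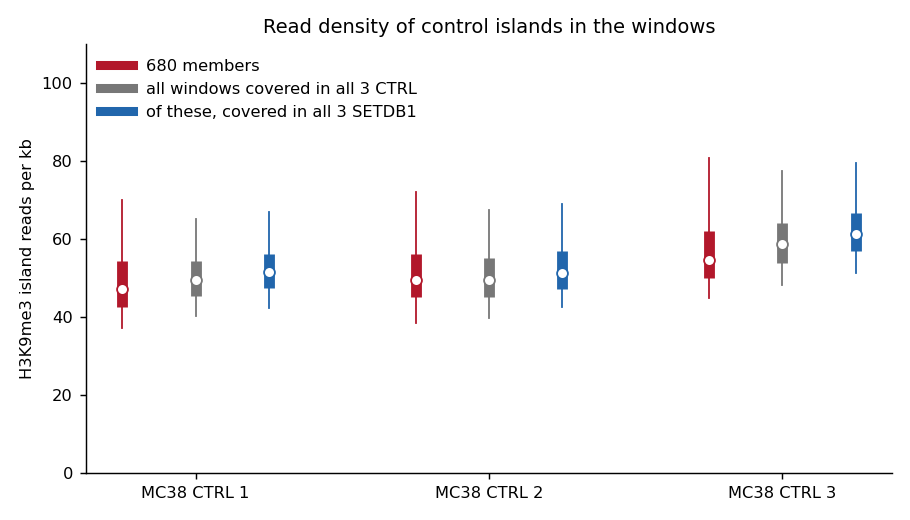
H3K9me3 island reads per kb in each MC38 CTRL library for the 680 members (red), all 61312 control-covered windows (grey) and those covered in all 3 SETDB1 libraries (blue). Circles are medians, thick bars the middle 50% and thin lines the 5th to 95th percentiles. The medians of members lie between 47.3 and 54.6.

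Members stood mostly alone. They formed 605 runs of adjacent windows: 535 single windows, 67 pairs, 1 run of 3 and 2 runs of 4. For 342 members (50.3%) a neighbouring window held an island of at least 1 SETDB1 library, against 98.4% of control-covered windows. Islands of all 3 SETDB1 libraries lay next to 10.7% of members and 66.6% of control-covered windows, and islands of all 3 CTRL libraries next to 54.1% and 87.1%. The neighbours were not part of the rule, but an island that reaches across a window border ties them to it.

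The members were spread over all chromosomes tested, with 73 on chromosome 3, 59 on chromosome 13, 51 on chromosome 12 and 1 on X. Chromosome 3 held 22.4% of control-covered windows and 10.7% of members, so only 0.531% of its control-covered windows were members. The share was 2.51% on chromosome 18 (26 members) and 2.2% on chromosome 9 (30 members). Adjacent windows can share an island, and no test was made of these shares.

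**Figure D3:**
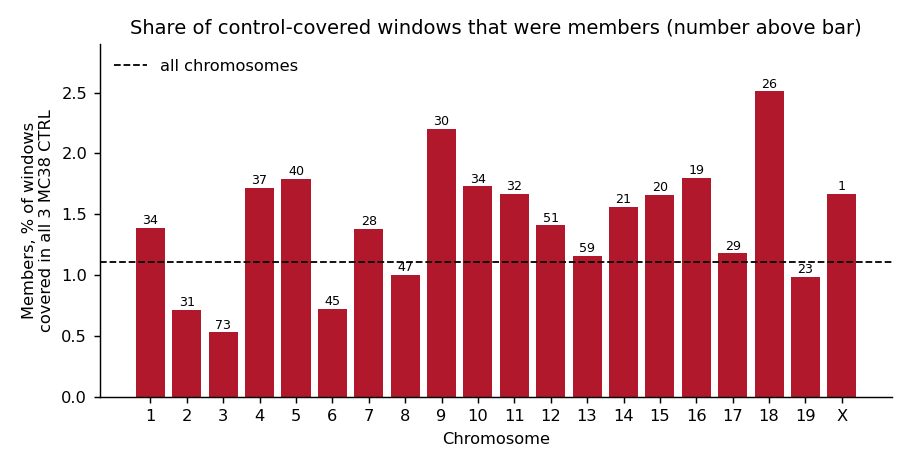
Members as a percentage of control-covered windows on each chromosome, with the number of members above each bar and the share over all chromosomes (1.11%) as a dashed line. Chromosome 3 has the most members, 73, and the lowest share, 0.531%.

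Protein-coding genes lay over a minority of the members. Of the 680, 229 (33.7%) overlapped a protein-coding gene of the RefSeq table (GRCm38.p6, the assembly of mm10), 117 another RefSeq gene only, and 334 none. The share over protein-coding genes was 22.8% in control-covered windows and 42.2% in all windows. The gene table gives gene spans without exons, so windows could not be placed in exon or intron. In all, 198 protein-coding genes were overlapped, 160 of them by 1 member and 38 by at least 2. A transcription start of the RefSeq promoter table lay in 25 members (3.68%), against 2.25% of control-covered windows and 5.03% of all windows.

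The genes with most members had varied roles. Sfi1, which encodes a centrin-binding protein of the centrosome, Fam160a1, Spock1, which encodes an extracellular proteoglycan, and Dnah8, an axonemal dynein heavy chain, had 4 members each. Kcnab1, a potassium channel beta subunit, and Syt16, a synaptotagmin relative, had 3 each. A further 28 genes had 2 members, and the first of these along the genome, Hmcn1, which encodes the extracellular matrix protein hemicentin, and Nebl, the nebulette gene of muscle, are described. Of the other 26, Stmn2, a neuronal regulator of microtubules, and F10, coagulation factor X, were picked out after their values were seen. For Sfi1, Stmn2 and F10 the members were all of the control-covered windows of the gene (4 of 4, 2 of 2 and 2 of 2). This was not particular to them. It held for other genes with 2 members, among them Grin1, Klra4, Rslcan18 and Zfp382 (2 of 2 each). Genes with 1 member such as Kcnq5 and Kcnn3 (1 of 1 each) showed it too. For Spock1 they were 4 of 75, for Syt16 3 of 22, for Kcnab1 3 of 16, for Fam160a1 4 of 13, for Dnah8 4 of 7, for Hmcn1 2 of 4 and for Nebl 2 of 20.

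Sfi1 held the densest members, the 4 adjacent windows of chr11:3180001-3200000. Their control islands had 469, 439 and 495 reads per kb in CTRL replicates 1, 2 and 3, and 1 island spanned all 4 windows. In the window starting at 3185001, B16 H3K9me3 was 131, 124 and 0 RPM in CTRL and 134, 129 and 121 RPM in SETDB1 libraries, where RPM is island reads per 1000000 counted island reads after TMM scaling (edgeR's normalisation). H3K9Ac there was 27.1, 0 and 24.2 RPM in MC38 CTRL, 27.2, 26.7 and 32.6 RPM in MC38 SETDB1 and 0 in all 6 B16 libraries. In both CTRL groups 1 library of 3 had no island beside others at a high level, and both antibodies gave islands at this site. The other members over 100 reads per kb, 4 windows on chromosome 18, overlapped no protein-coding gene, and the next highest member had 88.7.

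The second run of 4, chr3:85725001-85745000 in Fam160a1, had common densities, 53.1, 59.3 and 69.2 reads per kb in the window starting at 85735001. All 3 control libraries covered at least 4800 of the 5000 bp there. B16 kept the mark in that window, with 13, 12.8 and 14.5 RPM in CTRL and 9.99, 14.5 and 14.1 RPM in SETDB1 libraries. The groups overlapped. The longest runs further included a pair of windows in Hmcn1, at chr1:150935001-150945000. Their densities were 34.4, 44.2 and 44.8 reads per kb, and no B16 H3K9me3 library had an island there.

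The other genes with most members differed in their B16 state. Spock1 had a pair of members at chr13:57850001-57860000 and another at chr13:57880001-57890000, with 46.5 to 62.8 reads per kb in the MC38 control libraries. No B16 H3K9me3 library had islands in these windows except SETDB1 replicate 3, with 2.78 RPM in the first window. Kcnab1 had a pair at chr3:65250001-65260000 and a single member further along the gene. In the first window of that pair B16 H3K9me3 was 13.8, 12.4 and 13.5 RPM in CTRL and 14.4, 9.95 and 12.9 RPM in SETDB1 libraries, so B16 kept the mark in both genotypes. Dnah8 had pairs at chr17:30670001-30680000 and chr17:30730001-30740000. In its window starting at 30675001, B16 H3K9me3 was 15.5, 13.1 and 14.3 RPM in CTRL and 0, 1.98 and 12 RPM in SETDB1 libraries, all SETDB1 values below all control values and without an edgeR call. Syt16 had 3 separate members on chromosome 12, and the one at chr12:74145001-74150000 was kept in B16, at 13.5, 9.9 and 12.3 RPM in CTRL and 10.7, 11.1 and 12 RPM in SETDB1 libraries. Nebl had 2 separate members, chr2:17565001-17570000 with 55.0, 46.6 and 51.4 reads per kb in the MC38 control libraries and chr2:17690001-17695000 with 50.3, 55.0 and 50.1. The first had no B16 H3K9me3 island, and the second had 0.988, 0.597 and 2.0 RPM in B16 CTRL and none in B16 SETDB1 libraries. F10 had a pair at chr8:13045001-13055000, also with islands in all 6 B16 libraries. Stmn2 had a pair at chr3:8520001-8530000, where B16 H3K9me3 of the first window was 6.17, 0 and 0 RPM in CTRL and 0, 5.88 and 0 RPM in SETDB1 libraries. Members of 1 gene thus differed in their B16 state: the single member of Kcnab1 had 6.87, 6.8 and 0 RPM in B16 CTRL and no island in B16 SETDB1 libraries.

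Of the gene lists, zinc finger genes had 8 of 469 genes over members, and 148 over control-covered windows. All protein-coding genes gave 198 of 21631 (0.915%) and 6.97% of the 2840 genes over control-covered windows, against 5.41% for zinc finger genes. The 10 member windows of zinc finger genes had mean control densities of 45.0 to 75.5 reads per kb, and 7 of the 10 were covered in all 3 B16 CTRL libraries. Zfp382, a KRAB zinc finger gene on chromosome 7, lost both of its control-covered windows. Rslcan18, another KRAB zinc finger gene, had 2 members at chr13:67100001-67110000, and in the window starting at 67105001 H3K9Ac was 14.3, 11.8 and 9.32 RPM in MC38 CTRL and 15.9, 13.3 and 8.15 RPM in MC38 SETDB1 libraries. Those groups overlapped, and the acetylation was already present in control cells. Zscan18 (1 of 3 control-covered windows) and Zfp951 (1 of 11) had 1 member each. Zinc finger genes are similar in sequence, and reads shared between them cannot be told apart here.

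Neuronal adhesion and synapse genes had 11 of 174 genes over members, 16.9% of the 65 over control-covered windows. Their 14 member windows had mean densities of 43.8 to 66.7 reads per kb. Grin1, the obligate NMDA receptor subunit, had 2 adjacent members at chr2:25295001-25305000 with 63.8, 64.7 and 65.5 reads per kb. The first held H3K9Ac islands of 15.8, 11.8 and 16 RPM in MC38 CTRL and 11.2, 8.02 and 11.1 RPM in MC38 SETDB1 libraries, with each SETDB1 library below each control library. Grin1 passed no edgeR test. Kcnq5 (chr1:21625001-21630000) and Kcnn3 (chr3:89575001-89580000), potassium channel genes, had 1 member each. Kcnq5 kept H3K9me3 in B16, at 11.3, 10.6 and 12.5 RPM in CTRL and 6.41, 7.11 and 8.22 RPM in SETDB1 libraries, every SETDB1 library below every control.

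Clustered protocadherins had 11 of 55 genes over members, but Pcdha1 to Pcdha11 are nested transcripts over 1 single window of chromosome 18, so this is 1 region. Cytochrome P450 genes had 3 of 98 (Cyp7b1, an oxysterol hydroxylase, Cyp2j6 and Cyp2c69), and their member windows held no H3K9Ac island in either line. Natural killer receptors and lectins had 1 of 62 (Klra4, 2 members, both covered in all B16 CTRL libraries), serpins 1 of 63 (Serpinb1c) and olfactory receptors 1 of 1110 (Olfr919). Vomeronasal receptors had 0 of 353, although 93 of them lay over control-covered windows. Cytokines, chemokines and their receptors had 0 of 176 (20 over control-covered windows), germline genes 0 of 34 (14) and imprinted genes 0 of 36 (10). Interferon and nucleic acid sensing genes had 0 of 36 (1), MHC class I antigen presentation 0 of 21 (2) and H3K9 methylation factors 0 of 29 (5). The gut, mesenchymal and leukocyte lists had 0 each.

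The melanocyte list had 1 gene over a member, Dct, the pigment enzyme dopachrome tautomerase. The window chr14:118025001-118030000 in Dct had 53.9, 46.2 and 48.3 reads per kb of H3K9me3 in MC38 CTRL and no H3K9Ac island in any MC38 library. In B16 it was the reverse, with no H3K9me3 island in any library and H3K9Ac of 23, 23.6 and 7.67 RPM in CTRL and 20, 20.1 and 7.63 RPM in SETDB1 libraries. The loss of islands in MC38 SETDB1 cells was not accompanied by an H3K9Ac island at this site.

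H3K9Ac was read in libraries the rule did not use. Members were more often acetylated than control-covered windows as a whole, and about as often as, or less often than, windows of the whole genome. In MC38, 457 of 680 (67.2%) had no H3K9Ac island in any of the 6 libraries, against 90.9% of control-covered and 64.9% of all windows. In 39 members (5.74%) all 6 MC38 libraries had an island, against 1.08% and 17%. The share with an island in at least 1 MC38 CTRL library was 26.9% in members, 6.51% in control-covered windows and 31.8% in all windows, so the difference from control-covered windows was present in control cells. It was present in B16 too, where 464 members (68.2%) had none in all 6 libraries against 90.6% of control-covered and 65.9% of all windows. In each of the 12 H3K9Ac libraries of both lines the share with at least 500 bp was higher in members, at 11.9% to 19.4%, than in control-covered windows, at 2.6% to 4.9%. Windows are not replicates, so these shares carry no test. Both marks in 1 window of 5 kb need not lie on the same nucleosomes or in the same cells. Members also had less of the window under H3K9me3 islands in MC38 CTRL, which leaves more of it free, and the part of that in the difference was not tested.

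Few members gained H3K9Ac with the loss of H3K9me3. The number of members with at least 500 bp under H3K9Ac islands was 83, 81 and 132 in MC38 CTRL and 108, 96 and 130 in MC38 SETDB1 libraries, with overlapping groups. Of the 680, 265 averaged 10 or more island reads across the 12 H3K9Ac libraries and were tested. Of these, 69 had no H3K9Ac island in any MC38 library and could not be called in MC38, but they count in the shares of the 265. edgeR's quasi-likelihood test with Benjamini-Hochberg adjustment over all 201802 windows tested called 0 of the 265, where 0.0798% of all windows tested were called. The smallest edgeR adjusted p among members was 0.734. At an unadjusted edgeR p under 0.05, 13 were higher in SETDB1 (4.91%, background 2.19%) and 3 lower (1.13%, background 1.57%). In control-covered windows tested the shares were 2.28% higher and 1.34% lower. All 13 higher members had no island in any MC38 CTRL library. Of the 52 tested members with island reads in all 3 MC38 CTRL libraries, 0 were higher and 0 lower, against 0.598% and 0.846% of all such windows. DESeq2 called 10 higher (3.77%, background 2.03%) and 4 lower (1.51%, background 1.42%) and gave 90 of the 265 no adjusted p. All 3 SETDB1 libraries lay above all 3 CTRL libraries in 8 tested members (3.02%, background 1.84%) and below in 2 (0.755%, background 1.86%). In the 39 members with islands in all 6 libraries, the median log2 change was 0.03, against -0.01 in the 89366 such windows overall. Summed over the tested members, H3K9Ac was 620, 436 and 813 RPM in CTRL and 679, 637 and 824 RPM in SETDB1 libraries. The groups overlapped, also without the 4 Sfi1 windows, which share 1 island, at 511, 436 and 716 RPM in CTRL and 570, 531 and 693 RPM in SETDB1 libraries. The SETDB1 library was the higher in 3 of 3 same-numbered pairs with those windows and in 2 of 3 without them. With the replicate number as a block, which the H3K9Ac libraries support, 6 members were higher (2.26%, against 2.09% of all windows) and 3 lower (1.13%, against 1.74%) at an unadjusted edgeR p under 0.05. That fit called 0 members and 0 of all 201802 windows at the adjusted threshold. With the 6 MC38 libraries alone, 201 members passed the filter, of which 5 were higher and 1 lower at an unadjusted edgeR p under 0.05. Of all 176805 windows tested with these libraries alone, 1245 were higher and 690 lower, and 0 were called at the adjusted threshold.

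Under the same all-or-none rule, 4 members had at least 500 bp of H3K9Ac islands in all MC38 SETDB1 and none in any MC38 CTRL library, and 0 showed the opposite. This was 0.588% of members, 0.0294% of control-covered windows and 0.0901% of all windows. None of the 4 overlapped a RefSeq gene. The window chr3:90635001-90640000 rose from no island in CTRL to 15.4, 7.39 and 8.36 RPM (10.4 ± 4.39, SD, n = 3), the member with the edgeR adjusted p of 0.734. The other 3 reached lower levels. The window chr15:4165001-4170000 had 3.6, 5.05 and 4.25 RPM, chr13:52455001-52460000 had 3.29, 2.8 and 2.53 RPM, and chr8:4430001-4435000 had 3.13, 2.22 and 2.74 RPM in SETDB1 libraries. In B16, none of the 4 had an H3K9Ac island in any library. The 4 differed in B16 H3K9me3. The window on chromosome 3 kept it, at 17.2, 16.2 and 13.6 RPM in CTRL and 15.9, 18.2 and 14.4 RPM in SETDB1 libraries. The window on chromosome 8 kept it too, at 9.26, 11.1 and 13.2 RPM and 12, 15.9 and 15.2 RPM. The window on chromosome 15 had 7.12, 4.65 and 0 RPM in CTRL and no island in SETDB1 libraries, and the window on chromosome 13 had none in any B16 library.

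Of the 9 protein-coding genes with established symbols whose start lay in a member, Rnf144b had the highest H3K9Ac in MC38 SETDB1. Rnf144b encodes an E3 ubiquitin ligase of the RING-between-RING type. H3K9Ac in chr13:47120001-47125000 was 0, 0 and 3.3 RPM in MC38 CTRL and 7.05, 11.5 and 7.9 RPM in MC38 SETDB1 libraries. Each SETDB1 library exceeded each control library, with means of 1.1 ± 1.9 and 8.81 ± 2.34 RPM (SD, n = 3). edgeR fitted a log2 change of 3.00 with a standard error of 2.67 and an adjusted p of 1, so the difference did not pass the test. No B16 library had an H3K9Ac island there. The control H3K9me3 islands covered 800, 1800 and 1000 bp of the window at 51.1, 48.2 and 55.9 reads per kb.

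Hdhd5, a hydrolase gene, had H3K9Ac in the 5 kb window of its start in every library. It was 8.83, 4.39 and 8.75 RPM in MC38 CTRL and 11.2, 4.85 and 5.58 RPM in MC38 SETDB1, with overlapping groups. These sums do not place the islands within the window. Plekha8, which encodes a glycolipid transfer protein of the Golgi, had an alternative start in a member, with 0.642, 4.79 and 0.929 RPM in MC38 CTRL and 0.806, 3.98 and 0 RPM in MC38 SETDB1 libraries. Npnt, the extracellular matrix gene of nephronectin, had 2.83, 0 and 0 RPM and 3.0, 0 and 0 RPM. Ntf3, the gene of neurotrophin 3, and Psg25, a pregnancy-specific glycoprotein gene, had no H3K9Ac island in their member windows in any MC38 library. Of these genes, Rnf144b and Hdhd5 had the most H3K9Ac in the window of the start in MC38 SETDB1. Sequence before their starts is shown from RefSeq (GRCm38.p6) 5′ to 3′ on the gene's strand. Each CG is in capitals since CG-rich promoters are those commonly acetylated.
Rnf144b, plus strand, chr13:47122470-47122719: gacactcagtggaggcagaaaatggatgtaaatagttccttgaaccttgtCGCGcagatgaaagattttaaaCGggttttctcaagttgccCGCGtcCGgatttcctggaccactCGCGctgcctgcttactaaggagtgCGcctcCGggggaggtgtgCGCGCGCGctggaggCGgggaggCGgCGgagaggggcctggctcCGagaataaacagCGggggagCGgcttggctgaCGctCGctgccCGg
Hdhd5, minus strand, chr6:120531364-120531549: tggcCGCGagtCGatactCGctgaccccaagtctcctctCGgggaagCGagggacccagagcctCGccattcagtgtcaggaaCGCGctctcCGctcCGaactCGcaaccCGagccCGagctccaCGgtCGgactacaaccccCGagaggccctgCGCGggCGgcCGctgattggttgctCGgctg
The stretch of Rnf144b holds 23 CG and that of Hdhd5 22, over 250 and 186 bases that lie outside the RefSeq span of the gene. Such CG content was uncommon at member starts: at least 10 CG in the table's 300 bases were found in 7 of 27 starts (25.9%), against 43.8% of all 32619. The median was 5 CG in members and 7 in all. The GC box GGGCGG, searched on both strands, was found in 25.9% of member starts and 35.9% of all, CCAAT in 37% and 37.6%, and TATAAA in 3.7% and 13.7%. These letters describe the windows of sequence and say nothing of binding.

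**Figure D4:**
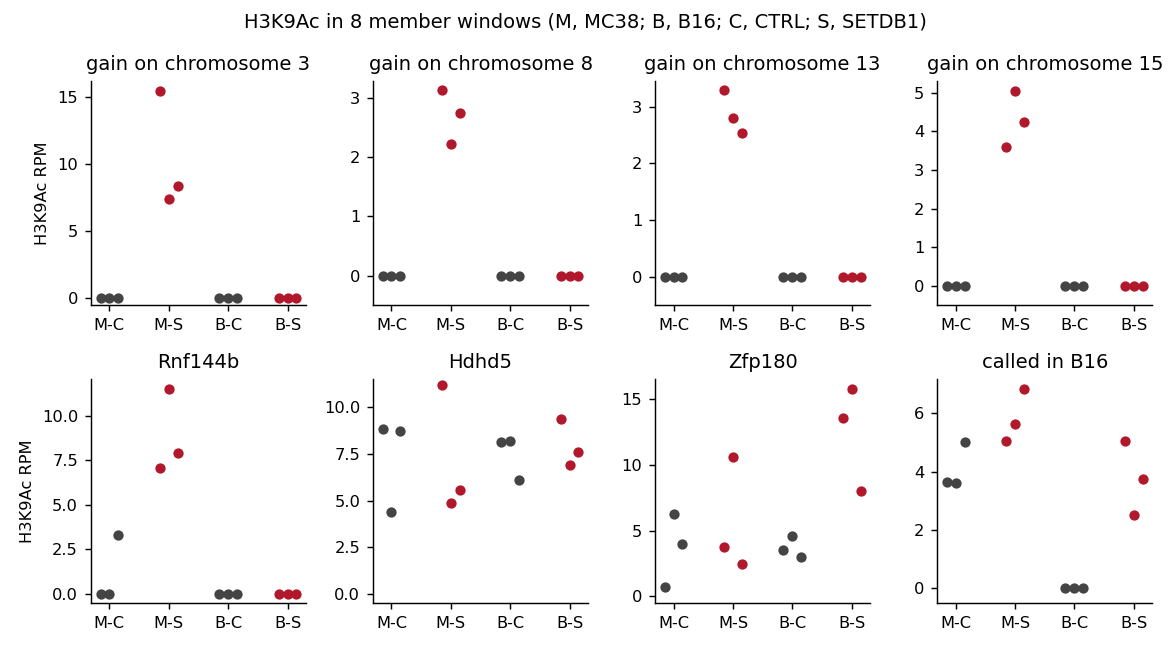
H3K9Ac in 8 member windows, in RPM for each library (dots; black CTRL, red SETDB1), with MC38 (M) and B16 (B) side by side. The top row holds the 4 members with islands in all MC38 SETDB1 and no MC38 CTRL library, and the lower row Rnf144b, Hdhd5, Zfp180 and the 1 member called in B16. In Rnf144b the MC38 SETDB1 libraries, 7.05 to 11.5, lie above the controls, 0 to 3.3.

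In B16 the same windows were in mixed states. Of the 680 members, 153 (22.5%) had at least 500 bp under H3K9me3 islands in all 6 B16 libraries and 158 (23.2%) had no island in any, close to the 24.6% and 24.3% of all control-covered windows. A loss by the same rule in B16 was found in 22 members (3.24%), against 0.827% of control-covered windows. Among windows covered in all 3 B16 CTRL libraries, 22 of 242 members (9.09%) and 507 of 18803 control-covered windows (2.7%) were lost. The 2 sets are not alike in cover. In MC38 CTRL the least covered library had a median of 1.6 kb under islands in members and 2.6 kb in control-covered windows. Islands of all 3 CTRL libraries lay next to 54.1% and 87.1%. The part of that in the difference was not tested. The opposite change, no island in B16 CTRL and cover in all SETDB1 libraries, was found in 13 members (1.91%) and 2.32% of control-covered windows. The number of members with at least 500 bp was 395, 365 and 307 in B16 CTRL and 292, 320 and 352 in B16 SETDB1 libraries (355.7 ± 44.7 and 321.3 ± 30.0, SD, n = 3), with overlapping groups. Over the whole genome the cover was 312 ± 23.4 Mb in B16 CTRL and 401 ± 32.2 Mb in B16 SETDB1 libraries.

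All 680 members passed the filter on low counts of the H3K9me3 libraries, to which the MC38 control reads that selected them contribute. The spread of the fit also draws on the MC38 libraries that selected them. The 158 members with no H3K9me3 island in any B16 library could not be called, but they count in the shares of the 680. edgeR called 1 higher and 1 lower in B16 SETDB1, where 0.385% of the 269905 windows tested were called in either direction. At an unadjusted edgeR p under 0.05, 30 were higher (4.41%, background 5.27%) and 62 lower (9.12%, background 2.52%). The shares of control-covered windows were 13.4% higher and 5.98% lower. DESeq2 called 33 higher (4.85%, background 7.38%) and 46 lower (6.76%, background 2.53%) and gave 43 no adjusted p. All 3 SETDB1 libraries lay below all 3 CTRL libraries in 73 members (10.7%, background 4.24%) and above in 30 (4.41%, background 5.33%). Those backgrounds hold fewer windows that can fall: 35.6% of members and 11.2% of all windows had at least 500 bp in all 3 B16 CTRL libraries. Among windows with island reads in all 3 B16 CTRL libraries, all SETDB1 libraries lay below in 73 of 251 members (29.1%), 18.2% of control-covered windows and 17.9% of all 64011. Here too the lower cover of members in MC38 CTRL was not matched, and its part was not tested. Only 510 of the 680 passed the filter on the 6 B16 libraries alone, where edgeR called 0 of all 200199 windows. In 157 members with reads in all 6 libraries the median log2 change was -0.01, against 0.00 over all 45866 such windows. Summed H3K9me3 over the members was 3860, 3650 and 2737 RPM in B16 CTRL and 3090, 3287 and 3544 RPM in B16 SETDB1 libraries, with overlapping groups.

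The member called lower in B16 lay in Zfp382, at chr7:30135001-30140000. H3K9me3 there was 17.3, 11.2 and 10.0 RPM in B16 CTRL (12.8 ± 3.91, SD, n = 3) and no island was called in any B16 SETDB1 library (edgeR adjusted p 0.0489). The next window, chr7:30140001-30145000, had 17.3, 6.98 and 7.38 RPM in B16 CTRL and none in SETDB1, with an edgeR adjusted p of 0.214. In MC38 CTRL the control islands over them had 47.3, 49.6 and 48.8 reads per kb in the first window. The member windows of Zfp382 thus had H3K9me3 islands in all 6 control libraries of both lines and in none of the 6 knockout libraries. They held no H3K9Ac island in any library. The gene spans chr7:30121833-30140758, and its other windows are not described here. Of the 22 members lost in both lines, 7 overlapped a protein-coding gene. Beside Zfp382 these included a pair of windows in Trdn, the triadin gene of muscle calcium release, which was picked out after its values were seen: 7.08 ± 0.399 and 3.61 ± 1.17 RPM in B16 CTRL and no island in SETDB1 (edgeR adjusted p 0.243 and 0.481). The 1 member called higher in B16, chr12:107545001-107550000, overlapped no RefSeq gene. It had no island in B16 CTRL and 15.8, 14.1 and 13.6 RPM in B16 SETDB1 libraries (14.5 ± 1.14, edgeR adjusted p 0.0483), the opposite of its selection in MC38. Both calls lay close to the threshold of 0.05 and became 0 without B16 CTRL replicate 3, SETDB1 replicate 2 or SETDB1 replicate 3. The call of higher H3K9me3 also became 0 without SETDB1 replicate 1, and the call of lower H3K9me3 in Zfp382 without CTRL replicate 1 or CTRL replicate 2.

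**Figure D5:**
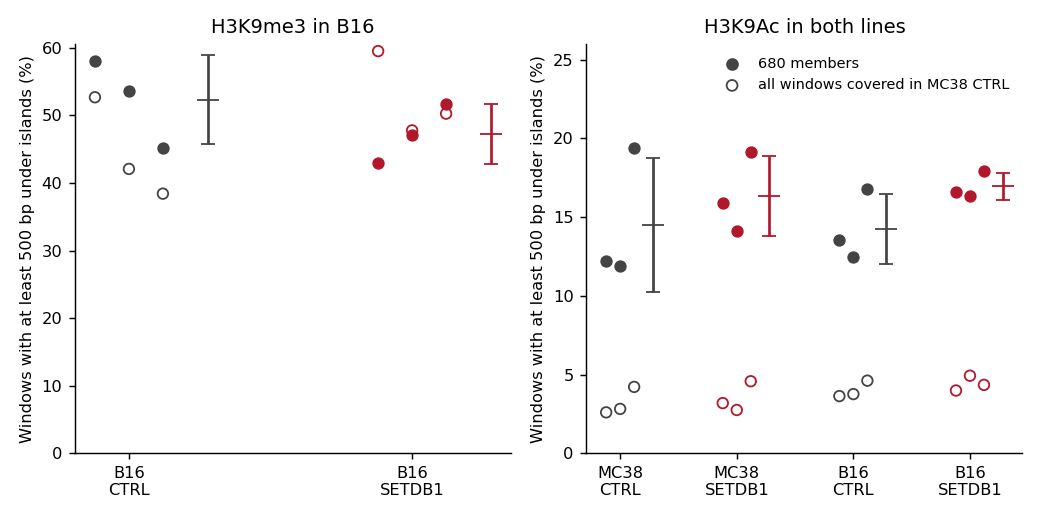
Percentage of the 680 members (filled) and of all control-covered windows (open) with at least 500 bp under H3K9me3 islands in each B16 library (left) and under H3K9Ac islands in each library of both lines (right). Bars at the side are mean ± SD of the members over 3 libraries. For H3K9Ac the members lie above the control-covered windows in every library, and for H3K9me3 the B16 genotypes overlap.

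For H3K9Ac in B16, 1 of the 265 tested members was called higher by edgeR and 0 lower, where 0.16% of all windows tested were called. Of the 265, 71 had no H3K9Ac island in any B16 library and could not be called in B16. The called member was chr4:40895001-40900000, over the uncharacterised gene Gm34289. It had no island in B16 CTRL and 5.06, 2.51 and 3.74 RPM in B16 SETDB1 libraries (3.77 ± 1.28, SD, n = 3, edgeR adjusted p 0.00638). With the replicate number as a block, edgeR called 0 members and 0 of all windows tested. At an unadjusted edgeR p under 0.05, 8 members were higher (3.02%, background 3.11%) and 3 lower (1.13%, background 1.65%). DESeq2 called 12 higher (4.53%, background 3.15%) and 4 lower (1.51%, background 1.61%), again with 90 given no adjusted p. In MC38 the window over Gm34289 was acetylated in both genotypes, at 3.65, 3.6 and 5.01 RPM in CTRL and 5.06, 5.63 and 6.85 RPM in SETDB1 libraries, where each SETDB1 library exceeded each control without a call. All 3 SETDB1 libraries lay above all 3 CTRL libraries in 11 tested members (4.15%, background 4.49%) and below in 2 (0.755%, background 2.4%). Summed H3K9Ac over the tested members was 515, 588 and 559 RPM in B16 CTRL and 624, 642 and 636 RPM in B16 SETDB1 libraries, every SETDB1 library above every control. The same held for H3K9Ac island cover of the whole genome, at 380, 382 and 423 Mb in B16 CTRL and 448, 443 and 437 Mb in B16 SETDB1 libraries. Whether the sum over the members reflects that wider cover was not tested. At Zfp180, a zinc finger gene picked out after its values were seen, H3K9Ac was 3.49, 4.56 and 3.02 RPM in B16 CTRL and 13.6, 15.8 and 8.02 RPM in B16 SETDB1 libraries. H3K9me3 in that window, chr7:24085001-24090000, was 4.65, 2.39 and 4.38 RPM in B16 CTRL and 0, 0 and 2.22 RPM in SETDB1. Other zinc finger members differed from Zfp180. At Zfp951 H3K9Ac was 9.78, 9.62 and 6.68 RPM in B16 CTRL and 11.8, 9.1 and 8.95 RPM in B16 SETDB1 libraries, with overlapping groups. The member window of Zscan18 had no H3K9Ac island in B16. The edgeR log2 change of H3K9Ac at Zfp180 was 1.76 with a standard error of 0.77 and an adjusted p of 0.997.

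The 3 members that gained H3K9Ac islands in B16 under the all-or-none rule were not those of MC38. This was 0.441% of members, 0.15% of control-covered windows and 0.251% of all windows. They were the window over Gm34289, a window in Sec62, the gene of a protein translocation factor (picked out after its values were seen), with 4.13, 3.71 and 4.13 RPM in B16 SETDB1 libraries, and chr15:3055001-3060000 with 2.16, 2.99 and 2.38 RPM. In MC38 the window in Sec62 had 0, 0.707 and 5.04 RPM in CTRL and 0, 11.3 and 3.9 RPM in SETDB1 libraries. The opposite change was found in 1 member (0.147%, against 0.0212% of control-covered and 0.0338% of all windows), named after its values were seen. It lay in Pde10a, a phosphodiesterase gene, at chr17:8740001-8745000, with 4.4, 3.88 and 4.46 RPM in B16 CTRL and no island in B16 SETDB1 libraries (edgeR adjusted p 0.814).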

How the data were processed

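The 24 libraries are lists of SICER islands. Per the submitters' processing notes, cutadapt (version not given), Bowtie2 2.1.0, SAMtools 0.1.8, SICER 1.1 and deepTools 3.1.1 were used with mm10. How reads were filtered and inputs used is not given in the sources used here. The 4 input samples were not analysed here. The deposited values are read counts per island, not scaled between libraries. Here island reads were apportioned by overlap to 5 kb windows of chromosomes 1 to 19 and X, and rounded. edgeR 4.0.16 (quasi-likelihood test, TMM, 1 fit per mark over 12 libraries and 4 groups) was run on windows with a mean of at least 10 island reads, with Benjamini-Hochberg adjustment and calls at an adjusted p under 0.05. The fit was tested on simulated data. Alternatives, DESeq2 1.42.0 among them, are in the closing section. Genes and promoters came from RefSeq tables of GRCm38.p6 (49554 genes, 32619 promoter entries). Island counts follow depth and each library's calling threshold.

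The members and the gene lists were chosen with earlier results of these data known. Named genes overlap a member, are protein-coding and have an established symbol. They are the 8 with most members (ties by position), up to 4 per list, those of the 8 densest members and the 5 longest runs, those of called members, and the 6 with a start in a member and the highest MC38 SETDB1 H3K9Ac. Genes outside this rule are said to be picked out after their values were seen. Same-numbered H3K9Ac libraries of CTRL and SETDB1 deviated together (correlations 0.18, 0.39 and 0.27 in MC38 and 0.27, 0.44 and 0.41 in B16 over 68214 windows). The labels do not state that these numbers pair the samples. The main fit has no term for them, and a fit with them as a block is given beside it.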

Additional observations from a re-analysis of the deposited data

Results flagged for a closer look

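In 13 members, H3K9me3 moved in opposite directions in the lines: islands were in all MC38 CTRL and no MC38 SETDB1 library, and in all B16 SETDB1 and no B16 CTRL library. This difference was not tested, since the MC38 side was the rule of selection. It was 1.91% of members, against 2.32% of control-covered windows. Groups of 3 libraries are too small for a check of single outlying libraries.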

How the results depend on the processing

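The count of 680 rests on islands called in each library and on window choices. It was 861 with 200 bp, 533 with 1000 bp and 731 with starts shifted by 2500 bp, and moved further to 112 with 2500 bp, 1718 in 2 kb windows and 406 in 10 kb windows. Without the lowest 25% of islands by reads per kb it was 631, of which 380 were among the 680. Leaving those islands out in SETDB1 only gave 1635 and in CTRL only 380, alternatives chosen after seeing the data. Without 1 library it was 1344 to 4383. In the fits, DESeq2 moved every count: MC38 H3K9Ac 10 higher and 4 lower, B16 H3K9Ac 12 and 4, B16 H3K9me3 33 and 46. For B16 H3K9me3 (1 higher, 1 lower), the counts were 0 and 0 with the 6 B16 libraries alone and with the replicate block, fits that called 0 windows anywhere. They were also 0 and 0 with DESeq2 size factors (787 and 235 of all windows) and without the lowest 25% of islands (396 and 178), 0 and 2 when scaled by library totals alone, 0 and 1 with no filter, 2 and 2 with a mean of at least 30 reads, and 0 to 2 and 0 to 1 without 1 library. The H3K9me3 numbers were treated as unpaired, since their same-number correlations were mixed (0.19, 0.1 and 0 in B16 and 0.26, 0.23 and -0.14 in MC38). For B16 H3K9Ac, the 1 member called higher became 0 with the B16 libraries alone and the replicate block, which called 0 windows anywhere, and without the lowest 25% of islands (244 and 27 of all windows called). For MC38 H3K9Ac, 0 higher became 1 without the lowest 25% of islands and 0 to 1 without 1 library, the 1 without CTRL replicate 3. The replicate block changed no other call. Where not stated, the cause was not tested.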
